A study of Mus musculus with 2 samples.

Results

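The C/EBP, Nrf and small Maf factors are basic leucine zipper (bZIP) transcription factors that fibroblasts use in stress and differentiation. The set held 10 genes, Cebpa, Cebpb, Cebpd, Cebpg, Nfe2l1, Nfe2l2, Maff, Mafg, Mafk and Bach1, found on the array by their gene names. They were covered by 16 probes, each printed as 1 spot, of the 41174 probes for transcripts, which carry 28095 names. Of these 16 probes, 13 (from 9 genes) reached the signal minimum used by the study on both arrays, and both Cebpa probes and 1 of the 3 Nfe2l2 probes did not.

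The cells were NIH3T3, an established mouse fibroblast line, grown in medium with 10% bovine serum and either left untreated or exposed to 10 µM thapsigargin for 3 h. Thapsigargin inhibits the calcium pump of the endoplasmic reticulum (ER) and thereby disturbs protein folding there. Lysates were run on a 10 to 40% sucrose gradient, polysome RNA (P) was labelled with Cy3 and RNA from the free and monosome fractions (FM) with Cy5, and RNA of 3 pooled preparations went onto 1 array per condition. With 1 array per condition no difference has a replicate check, no test was made and no p-value is given, and these whole-culture values cannot tell less RNA per cell from fewer cells.

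bZIP proteins bind DNA as dimers. C/EBP proteins pair with each other or with factors such as Atf4 and switch on adipocyte, acute phase and inflammatory genes. Nrf1 (the product of Nfe2l1) and Nrf2 (of Nfe2l2) pair with a small Maf protein on antioxidant response elements, where Bach1, also paired with a small Maf, represses the same genes. Nrf2 is held down by Keap1, an adaptor of a ubiquitin ligase, and Nrf1 is made as a protein of the ER membrane that is released to drive proteasome genes.

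The probes the results turn on are given by the first 30 of their 60 bases, 5′ to 3′, with positions on mm9. They are those of Cebpb, which had the lowest changes, of Mafk, which had the highest change among probes well above background before any normalization, and of Cebpg and Nfe2l2, whose probes differed among themselves. Probes of a gene are numbered by their position in the transcript named on the array.
Cebpb probe 1 (NM_009883, base 894, chr2:167515309-167515368, plus strand): ggctgcagaagaaggtggagcagctgtcgc
Cebpb probe 2 (X62600, base 1424, chr2:167515847-167515905, plus strand): gagaaccttttccgtttcgagcattaaagt
Cebpg probe 1 (NM_009884, base 606, chr7:35835477-35835536, minus strand): aaattaagttgctgacaaaggaattaagtg
Cebpg probe 2 (NM_009884, base 3332, chr7:35832751-35832810, minus strand): tacggttctcaatttatgaaactagaaaca
Cebpg probe 3 (NM_009884, base 4166, chr7:35831917-35831976, minus strand): agtcttttcgtgtttggggaaataagtttc
Nfe2l2 probe 1 (AK029360, base 578, chr2:75529947-75530006, minus strand): tagtaatcctttttataggcccaaattgca
Nfe2l2 probe 2 (NM_010902, base 2068, chr2:75513917-75513976, minus strand): gtactgctaaaacttcctactgtgatgtga
Nfe2l2 probe 3 (NM_010902, base 2214, chr2:75513771-75513830, minus strand): ctcaagttaatttcttaggcaccatttggg
Mafk (NM_010757, base 2538, chr5:140278320-140278379, plus strand): cttctgaaagtaagctttaactttttcaaa
No annotation of mm9 was used here, so exon and UTR are not stated.

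The measure of translation efficiency was log2 P/FM, which is the log2 P signal of a probe minus its log2 FM signal. That of abundance was A, which averages both log2 signals. A had to exceed 4.5 on both arrays, a level that 0 of 153 negative control spots reached on either array. Coding probes (accessions starting with NM) that passed numbered 14657. Their log2 P/FM had a median of 0.30 in control and -0.24 in treated cells, the median change was -0.64, and A was higher by 0.40 in median. The direction of that median change depended on scaling, being 0.02 with normexp background correction and 1.91 when the 10 spike-in probes were used to scale the arrays, so each change is also given relative to all coding probes. The spike-in probes had a median change of -2.44, and the sources used here do not say whether spike-in RNA was added in equal amounts, on which the meaning of that scaling depends. By the study's methods, P and FM RNA were labelled in the proportions recovered from the gradients. These held more P than FM RNA in control cells and more FM than P RNA in treated cells. The P and FM signals of the arrays thus came from unlike RNA inputs, and the part of this in the spike-in change was not tested. Array error was judged by the spread of the change between spots of one probe (median SD 0.10 over 110 probes, or 0.22 for A below 7) and between probes of one accession (0.32 over 3438 accessions), which does not cover the spread between cultures. Of the fibroblast markers 7 of 7 were well above background on both arrays. Among leukocyte markers 2 of 3, Cd68 and Lyz2, were so, whereas Ptprc was not well above background in any channel, and of the epithelial and endothelial markers none of 2 each was. The part of these markers in the results was not tested. The chaperone Hspa5 and the factors Atf4 and Ddit3, which mark the ER stress response, were higher in log2 P/FM by 1.36, 3.42 and 2.58.

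The C/EBP probes lay on both sides of the other coding probes, and the Nrf and Maf probes above their median. The 6 C/EBP probes had a median change in log2 P/FM of -1.14, which is -0.50 relative to all coding probes, and 2 of them, both of Cebpg, lay above the median of all. The 7 probes of Nfe2l1, Nfe2l2, Bach1 and the small Mafs had one of 0.48, or 1.12 relative to all coding probes, and all 7 lay above the median of all (6 with normexp). The C/EBP median turned positive with spike-in scaling, at 1.41, but relative to all coding probes it stayed below 0 under every alternative except no filter on A, where it was 0.32. That setting adds the 2 Cebpa probes, which were not well above background in any channel. With loess the C/EBP median relative to all was only -0.05 and with the processed signals -0.13. In both of these settings 3 of the 6 C/EBP probes lay above the median of all. The Nrf and Maf median stayed above 0 under every alternative, both as it stands and relative to all, with the lowest values 0.37 and 0.61.

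**Figure D1:**
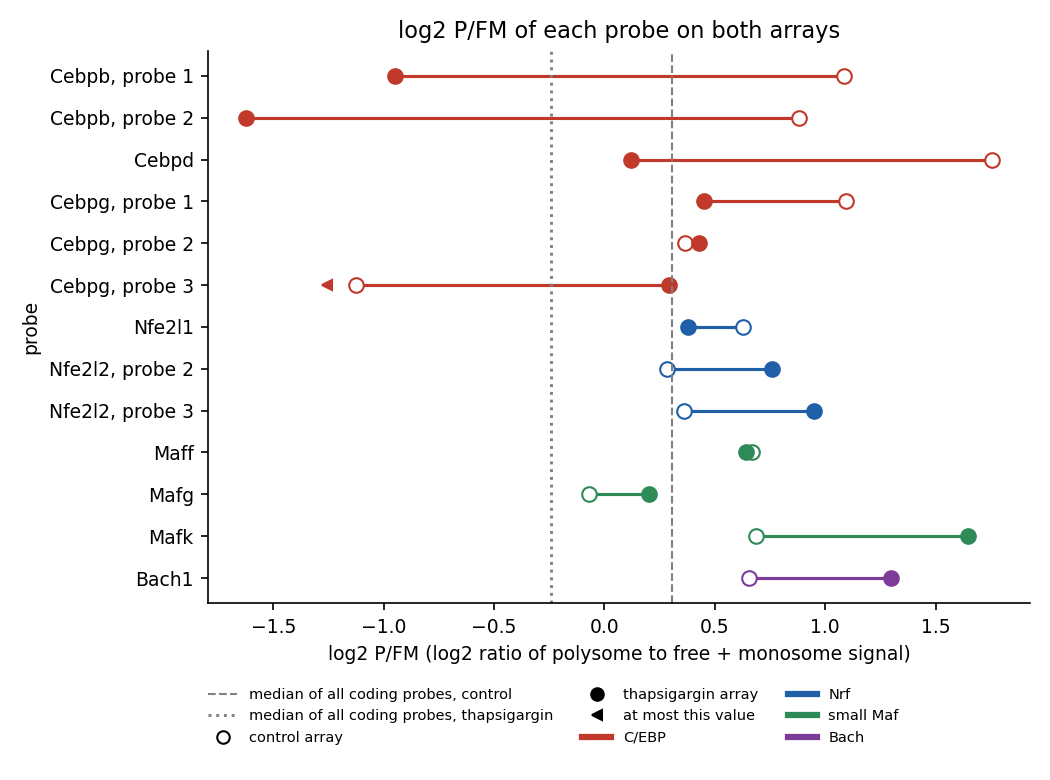
Each row is a probe with A above 4.5 on both arrays, the open circle is its log2 P/FM on the control array and the filled circle that on the thapsigargin array. The Cebpb probes run from 1.08 and 0.88 down to -0.95 and -1.62, whereas Mafk and Bach1 run upwards to 1.65 and 1.30. The triangle marks a control value that is an upper bound.

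The thresholds of the study gave few members a class. Sensitive probes, lower in log2 P/FM by 0.8 or more, numbered 3 of 13, both of Cebpb and the one of Cebpd, against 45.2% of all coding probes. Inducible probes, not above 0 in control cells and at least 1 higher in treated cells, numbered 1 of 13, probe 3 of Cebpg, against 11.0%. No member was resistant (0.8 or more on both arrays), against 3.54%. In all, log2 P/FM was higher in treated cells for 7 of 13 probes, against 32.2% of coding probes. A was higher by 1 or more for 8 of 13, against 13.4%, and higher at all for 13 of 13, against 77.9%. The count of 8 was 1 when the medians of both arrays were set equal, to 3 with the processed signals of the scanner software and to 4 with normexp.

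Cebpb encodes C/EBPβ, an activator of acute phase, inflammatory and early adipocyte genes that is made as long and short forms from one mRNA. On probe 1 the P signal was 430.5 in control and 441 in treated cells, and the FM signal was 203 and 852. On probe 2 the P signal was 5185 and 5349, and the FM signal was 2818 and 16496. In both probes the P signal was thus nearly equal on the arrays, at 1.02 and 1.03 times control, while the FM signal was 4.19 and 5.85 times control.

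The log2 P/FM of Cebpb accordingly went from 1.08 to -0.95 on probe 1 and from 0.88 to -1.62 on probe 2, an average change of -2.27 ± 0.33 (SD, n = 2 probes). Relative to all coding probes these changes were -1.39 and -1.86. Both exceeded the spread between probes of one accession several fold, and the probes differed from each other by about as much as that spread. The direction reversed only with spike-in scaling, to 0.28, and relative to all coding probes it was below 0 in 15 of 15 settings (the processing reported here and 14 alternatives). The differences in A were 1.05 and 1.30, or 0.65 and 0.89 relative to all. Since brighter probes had lower changes, coding probes within 0.5 of the same mean A were used as a reference, and of these 12.7% and 20.2% lay below the Cebpb probes in log2 P/FM.

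Cebpd encodes C/EBPδ, which acts with C/EBPβ early in adipocyte differentiation and in the acute phase response. Its P signal was 10637 in control and 6853 in treated cells, and its FM signal 3146 and 6299. It had the highest control log2 P/FM among the members, 1.76, against 0.12 in treated cells, a change of -1.64 and of -0.99 relative to all coding probes. Among the 330 coding probes of like signal, however, the median change was -1.73 and 54.8% lay below Cebpd. Its change was -0.15 with the processed signals, 0.0085 after loess and 0.91 with spike-in scaling, and relative to all coding probes it turned positive with the processed signals and loess, at 0.08 and 0.12. The difference in A was 0.18, less than the 0.40 of all coding probes.

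Cebpg encodes C/EBPγ, a short partner protein without an activation domain of its own that pairs with Atf4. The 3 probes of this one mRNA did not move alike. Probe 1, nearest to the start, went from 1.10 to 0.45, a change of -0.65, close to the median of all coding probes. Probe 2 went from 0.37 to 0.43, a change of 0.06. Probe 3, nearest to the end, was at most at -1.13 in control cells, since the P signal of 18.3 did not stand well above background there, and was at 0.29 in treated cells, a change of at least 1.42. In treated cells the 3 probes lay between 0.29 and 0.45, and they stood apart on the control array.

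The average change of Cebpg, with probe 3 at its bound, was 0.28 ± 1.05 (SD, n = 3 probes), so this average is itself a lower bound and its spread exceeded its size. Without probe 3 it was -0.29, and with A above 7 it rested on probe 1. Probe 3, the one inducible member, is also the dimmest probe that passed, and it no longer counted with A above 5.5 or when all signals had to be well above background. A of Cebpg was higher by 1.27 and 0.89 on probes 1 and 2 and by at least 0.43 on probe 3. Its FM signal was 3.02, 1.82 and 0.82 times control and its P signal 1.93 and 1.90 times control on probes 1 and 2 and at least 2.20 times on probe 3.

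Cebpa encodes C/EBPα, a factor of mature adipocytes, liver and granulocytes. Neither of its 2 probes was well above background in any of the 4 channels, and no level is given. Nor does that show that the mRNA was absent.

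Nfe2l2 encodes Nrf2, the main activator of antioxidant and glutathione genes. On probe 2 the P signal was 876 in control and 2588 in treated cells and the FM signal 719 and 1526. On probe 3 the P signal was 1040.0 and 3300.1 and the FM signal 809.6 and 1711. Both fractions were thus higher in treated cells, P by 2.95 and 3.17 times and FM by 2.12 and 2.11 times.

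The log2 P/FM of Nfe2l2 went from 0.29 to 0.76 on probe 2 and from 0.36 to 0.95 on probe 3, an average change of 0.53 ± 0.08 (SD, n = 2 probes) and of 1.18 relative to all coding probes. The direction was the same in all 15 settings, from 0.66 to 1.86 relative to all. Of the coding probes of like signal, 89.3% and 92.5% lay below these probes in log2 P/FM, and 95.7% and 96.7% in the change in A, which was 1.32 and 1.37. Probe 1 of Nfe2l2, designed on the cDNA AK029360, lies 15970 bases from the others on the genome. In the P channel it did not stand well above background on either array, its FM signal was 58.7 and 42.5, its log2 P/FM was at most -1.95 in control and -1.93 in treated cells, and no change is given.

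Nfe2l1 encodes Nrf1, the ER-bound relative of Nrf2 that drives proteasome genes. Its P signal was 1877 in control and 4983 in treated cells and its FM signal 1215 and 3832, which is 2.65 and 3.15 times control. Its A was higher by 1.53, the highest value among the members, or 1.13 relative to all coding probes, and 98.5% of the coding probes of like signal lay below it. Its log2 P/FM was 0.63 and 0.38, a change of -0.25, less than the spread between probes of one accession. That sign flipped with the processed signals, loess, centring and spike-in scaling. Relative to all coding probes the change was 0.40, and it lay above 0 in 14 of 15 settings, the exception being -0.13 with normexp. Among the 794 coding probes of like signal the median change was -1.58, and 85.4% lay below Nfe2l1 in log2 P/FM. The like-signal shares below were 81.8% for Mafk, 71.8% for Maff, 83.0% for Mafg and 85.2% for Bach1.

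The small Maf proteins have a DNA-binding bZIP domain but no activation domain, and serve as partners of Nrf1, Nrf2 and Bach1. Mafk had a P signal of 94.1 in control and 268 in treated cells and an FM signal of 58.5 and 85.7. Its log2 P/FM went from 0.69 to 1.65, a change of 0.96, or 1.60 relative to all. This was the highest change among members well above background in the processing reported here, but not with loess, where Mafk was at 1.05 and Nfe2l2 at 1.71, nor with the processed signals, where they were at 0.84 and 1.63. The treated value lay above 97.9% of coding probes. The change exceeded the spread between probes and was positive in all 14 settings in which Mafk was measured, relative to all from 1.06 to 1.72.

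Maff had a P signal of 359.5 in control and 1006 in treated cells and an FM signal of 226 and 645, so both fractions were higher to a like extent, 2.80 and 2.86 times. Its log2 P/FM was 0.67 and 0.64, a change of -0.03 that is below the spread between spots and turned positive with normexp, no background subtraction, the processed signals, loess, centring and spike-in scaling. Relative to all coding probes it was 0.61, and above 0 in 15 of 15 settings. The difference in A was 1.50, above 96.7% of the coding probes of like signal.

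Mafg had a P signal of 643 in control and 1118 in treated cells and an FM signal of 675 and 972. Its log2 P/FM went from -0.07, the lowest control value among members well above background, to 0.20. The change of 0.27 lay within the spread between probes but was positive in 15 of 15 settings, and relative to all it was 0.92. A was higher by 0.66. In treated cells Mafk was thus at 1.65, Maff at 0.64 and Mafg at 0.20 in log2 P/FM, each on 1 probe. These gaps exceeded the spread of treated values between probes of one accession (0.28). That spread is an SD of single values and not of differences, and Maff and Mafg were the closest pair.

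Bach1 encodes the repressor that competes with Nrf2 for small Maf partners and for antioxidant response elements. Its P signal was 489 in control and 946 in treated cells and its FM signal 311 and 385, which is 1.93 and 1.24 times control. Its log2 P/FM went from 0.65 to 1.30, a change of 0.64, or 1.29 relative to all coding probes, with the same direction in 15 of 15 settings. The treated value lay above 95.1% of all coding probes. A was higher by 0.63, or 0.23 relative to all, whereas Nfe2l2 differed more in A. Without normalization Mafk and Bach1 had the highest log2 P/FM among the members in treated cells.

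**Figure D2:**
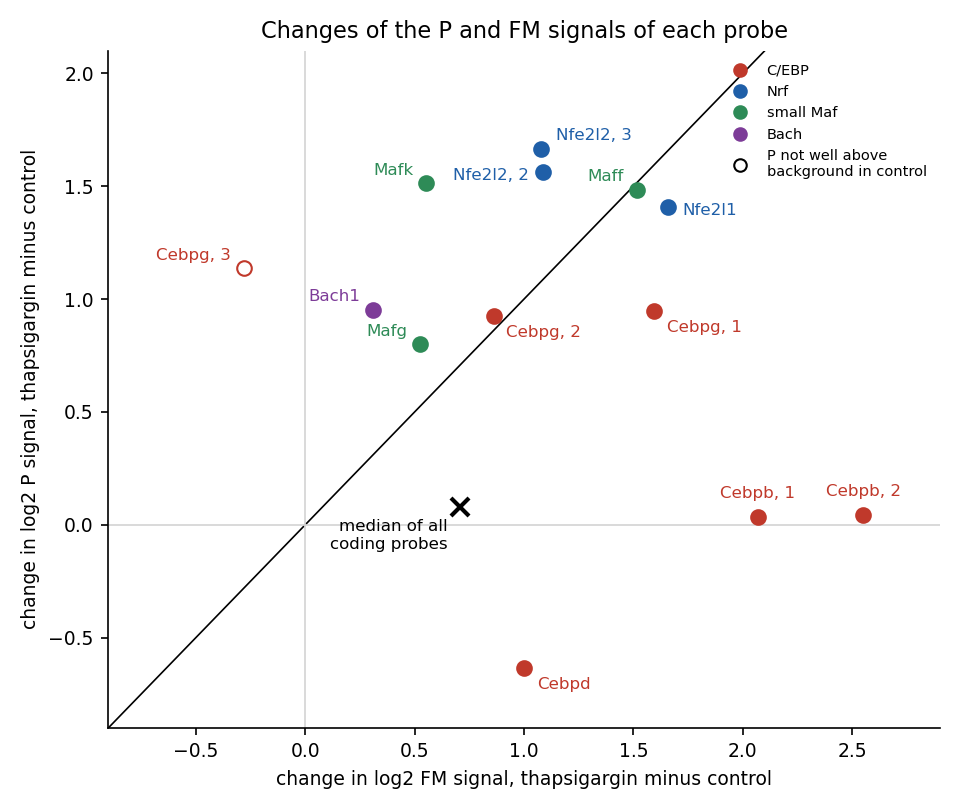
Each point is a probe, with the change of its log2 FM signal on the horizontal axis and that of its log2 P signal on the vertical axis, thapsigargin minus control. On the diagonal P and FM changed alike and log2 P/FM did not change. The Cebpb probes lie at 2.07 and 2.55 in FM and 0.03 and 0.04 in P, Cebpd is the one probe below 0 in P, and the cross is the median of all coding probes at 0.71 and 0.08.

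The order of the members by log2 P/FM differed between the arrays. In control cells Cebpd led at 1.76, followed by Cebpg probe 1 at 1.10, Cebpb at 1.08 and 0.88 on its probes, and then by Mafk, Maff, Bach1 and Nfe2l1 between 0.69 and 0.63. The last 4 differed by far less than the spread of control values between probes of one accession (median SD 0.29), and the same holds for Cebpg probe 1 and Cebpb probe 1. In treated cells the order was Mafk, Bach1, Nfe2l2, Maff, Cebpg, Nfe2l1, Mafg, Cebpd and Cebpb. From Maff at 0.64 to Cebpd at 0.12 each neighbour lay within the spread of treated values (0.28), whereas Cebpb lay apart from Cebpd by more than 1 on both probes. Of the 13 probes, 12 had a higher P signal in treated cells, against 53.1% of all coding probes, and 12 had a higher FM signal, against 84.8%.

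**Figure D3:**
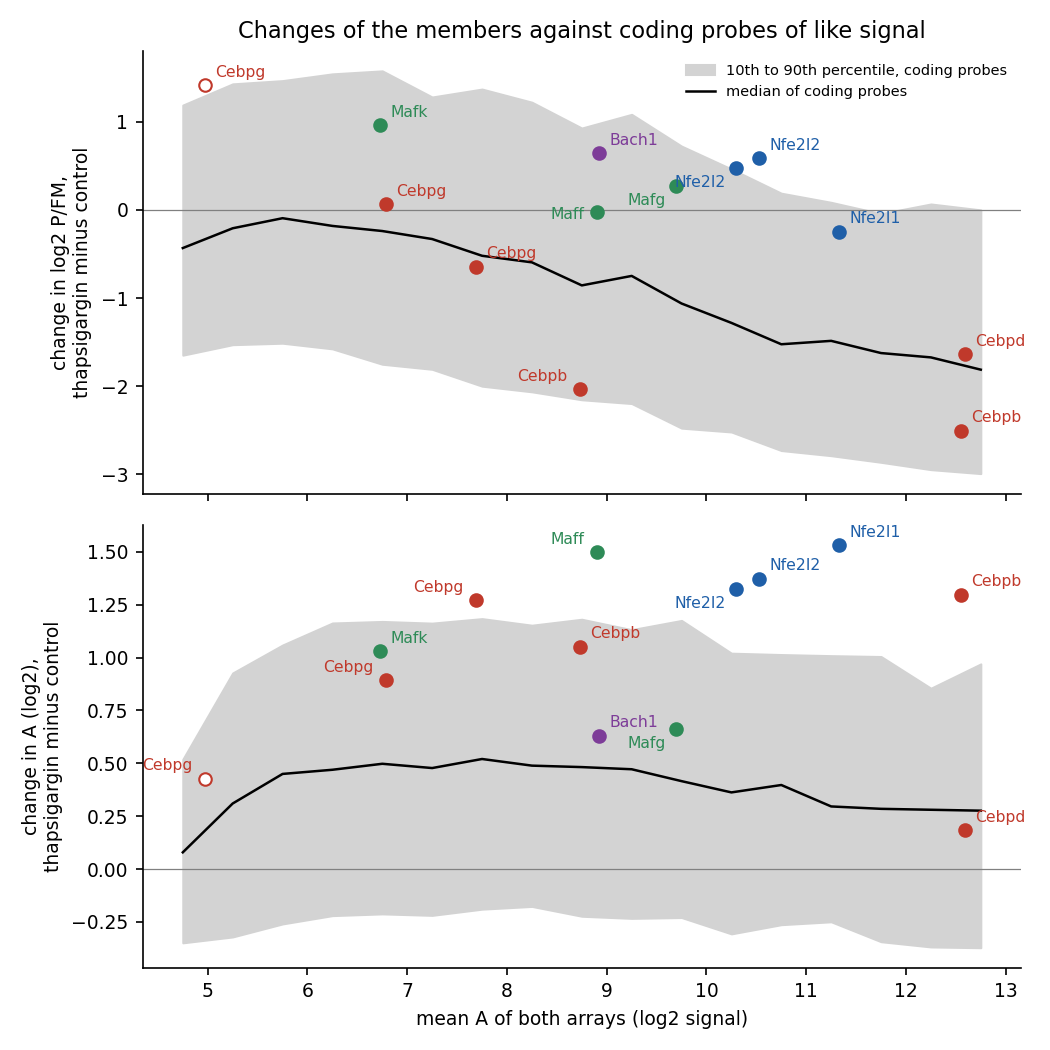
The upper panel plots the change in log2 P/FM and the lower panel the change in A of each member probe against the mean A of both arrays, with the median and the 10th to 90th percentile of coding probes in steps of 0.5 in A. Nfe2l2 sits at or above the upper edge of the band in both panels, Cebpb near the lower edge above and high below, and Cebpd close to the median in both. The open circle is Cebpg probe 3, whose change is a lower bound.

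By the distance over log2 P/FM and A on both arrays (4 values), the genes nearest to Mafk among 9608 others were Tln1 at a distance of 0.30, Syne2 at 0.32 and Otud7b at 0.34. Nearest to Cebpb probe 2 were Gdi2 at 0.52, Ptprs at 0.62 and Lamp1 at 0.67. Tln1 went from 0.78 to 1.54 in log2 P/FM, and Gdi2 from 0.72 to -1.36.

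Promoter sequences of the members were searched because A was higher on all 13 probes that passed, in the processing reported here. Cebpa, for which no level is given, was searched as well. RefSeq (GRCm38.p6) windows from 250 bases before to 50 after the start site were at hand for 9 of the 10 genes, all but Cebpd, in 15 windows. The core of the antioxidant response element, TGACNNNGC on either strand, which Nrf and small Maf dimers bind, was found in 5 of the 9 genes and in 14.0% of 27025 genes. Genes with several windows have more chances of a match, and a match of these letters is not a bound site. The 5 matches are shown with the motif in capitals, read in the direction of the gene, so that a match on the opposite strand appears as its reverse complement.
Nfe2l2 (chr2:75704884-75704913, motif from base -240): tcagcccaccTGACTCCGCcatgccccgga
Maff (chr15:79346499-79346528, motif from base -112): gggcgtctcaTGACTCTGCcactggaaaga
Mafg (chr11:120633750-120633779, motif from base -222): ctctgcaggaGCACGGTCAacccggcgagc
Mafk (chr5:139791513-139791542, motif from base -13): gatcccggaaGCGGTGTCAgtactggggag
Cebpb (chr2:167688898-167688927, motif from base -7): ggccccagcgTGACGCAGCccgttgccagg
These coordinates are on GRCm38.p6 and cannot be set against the mm9 positions of the probes. The composite C/EBP and ATF site TTGCATCA was in none of the 9 genes and in 1.03% of all genes.

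The other bZIP relatives of these factors, in a list of 9 genes, included 4 with a probe that passed the filter, of which 3 were higher (against 32.2% of coding probes) and 1 lower in log2 P/FM. The median change was 1.24, against -0.64 for all coding probes. Inducible were 3 of the 4, against 11.0% of coding probes. These were Ddit3 (which pairs with C/EBP proteins and blocks their usual binding), at -1.74 in control and 0.84 in treated cells, Bach2 (a repressor close to Bach1), at -0.50 and 0.93, and Maf, at -0.26 and 0.78. Nfe2l3, the third Nrf relative, was at -0.87 and -2.38 and was the 1 sensitive gene of the 4 (against 45.2%). Its change of -1.51 turned positive with spike-in scaling, at 1.04.

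Of the 12 regulators of Nrf1 and Nrf2, all of which passed, 6 were higher (against 32.2% of coding probes) and 6 lower in log2 P/FM. Sensitive were 4 (against 45.2%), inducible 2 (against 11.0%) and resistant 3 (against 3.54%). A was higher by 1 or more for 4 (against 13.4%). The median change in log2 P/FM was 0.16 and turned negative in 1 of 15 settings. Keap1, which marks Nrf2 for degradation, was at 1.25 in control and -0.75 in treated cells. Ngly1, which removes sugar chains from Nrf1, was at 0.46 and -1.41. Both were sensitive, as were Cul3, the scaffold of the Keap1 ligase, at -0.09 and -1.11, and Btrc, whose control FM signal was not well above background, so that its class rests on a bound. The changes of Keap1, Ngly1 and Cul3 turned positive with spike-in scaling and lay below the median of all coding probes in every setting in which they were measured. Inducible were Syvn1, an ER ubiquitin ligase, at -0.36 and 1.14, and the kinase Gsk3b at -0.07 and 1.10, both higher in every such setting. The change of Gsk3b was 1.17 ± 0.64 (SD, n = 2 probes).

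Of the 8 regulators and partners of C/EBP factors 5 were higher (against 32.2%) and 3 lower, with a median change of 0.60. Inducible were 3 of the 8 (against 11.0%), Atf4, Ddit3 and Atf5, with Atf4 going from -1.60 to 1.83. Ddit3 is also counted among the bZIP relatives above. Trib3 was resistant, as 1 of the 8 (against 3.54%), and higher in A by 3.48. Cop1, a ubiquitin ligase, went from -0.77 to -1.96, a change of -1.19 ± 0.59 (SD, n = 2 probes) that turned positive with spike-in scaling, and the RNA-binding protein Celf1 had a change of -0.54, or 0.11 relative to all. On the array the last pair carried the names Rfwd2 and Cugbp1.

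The targets of the Nrf and Maf factors were higher in log2 P/FM or sensitive about as often as coding probes at large. Of 16 such genes 15 passed, of which 5 were higher (against 32.2% of coding probes), 10 lower and 7 sensitive (against 45.2%). Inducible were 0 (against 11.0%) and resistant 3 (against 3.54%). The median change in log2 P/FM was -0.51 against -0.64 for all, positive in 2 of 15 settings. A was higher by 1 or more for 0 of these 15 (against 13.4%), and its median change was 0.25 (against 0.40 for all coding probes). The lowest changes in log2 P/FM were those of Blvrb, biliverdin reductase B, from 2.12 to -0.48, and Gsr, glutathione reductase, from 1.03 to -0.93, both below the median of all coding probes in every setting. The ferritin mRNAs Fth1 and Ftl1 were higher in log2 P/FM, from -4.60 to -3.97 and from -3.70 to -3.36, while their changes in A were -0.15 and -1.19.

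Of 8 C/EBP targets 6 passed, with 2 higher (against 32.2%) and 4 lower, 2 inducible (against 11.0%) and 3 sensitive (against 45.2%). The median change was -1.09, positive in 2 of 15 settings. With only probes well above background, which leaves 5 of these genes, it was -0.58, or 0.09 relative to all coding probes. Pparg, among the 3 sensitive genes, was not well above background in P on either array or in control FM. Its class is therefore not secure. The cytokine Il6 went from -0.98 to 0.86 and Ptgs2, which makes prostaglandins, from -1.97 to 1.67, and both were inducible and higher in A, by 1.94 and 2.16. The acute phase gene Saa3 went from 1.45 to -0.72 while its A was higher by 2.38. Fabp4, a fatty acid carrier of adipocytes, went from 2.42 to -0.14, a change of -2.56 ± 0.28 (SD, n = 2 probes), and both lay below the median of all coding probes in every setting in which they were measured. Classes of these lists were counted by gene, from the mean of its probes, and the background shares by probe.

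**Figure D4:**
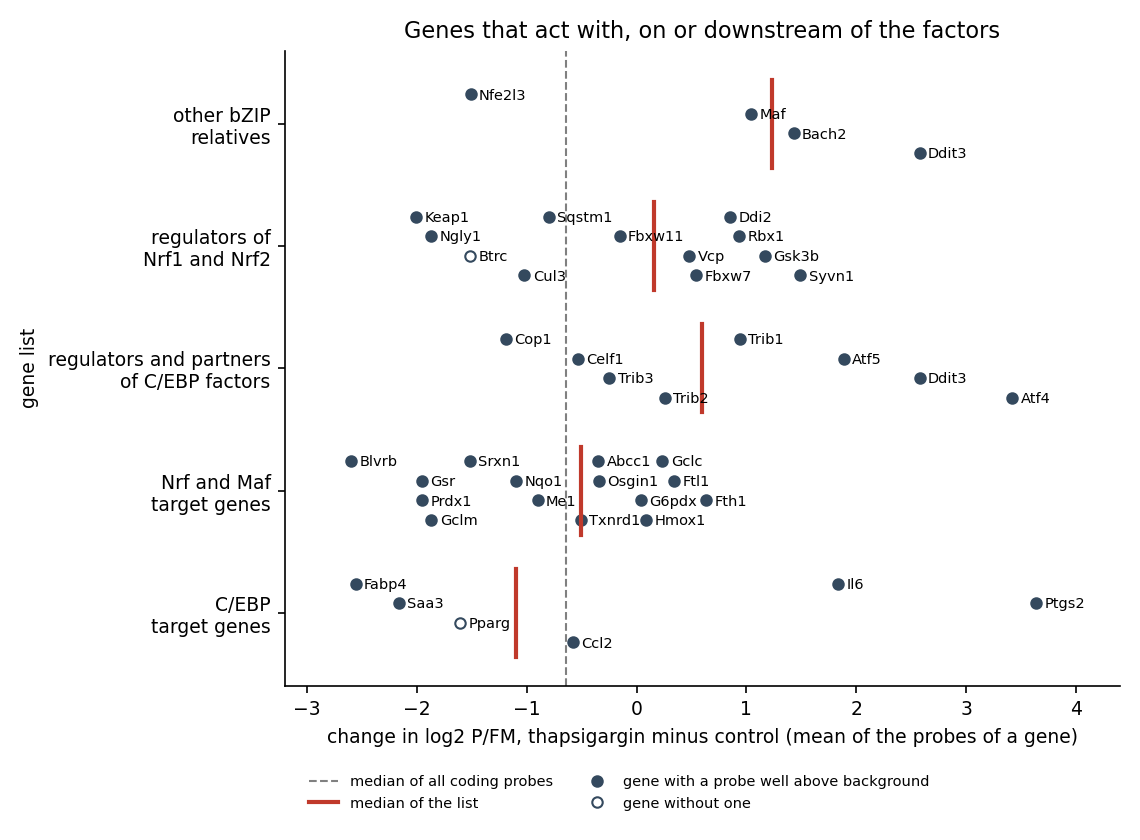
Each point is a gene of the named list, placed by its change in log2 P/FM (mean of its probes), with the median of the list as a red bar and the median of all coding probes, -0.64, as a dashed line. Atf4 at 3.42 and Ptgs2 at 3.64 lie farthest to the right and Blvrb at -2.60 farthest to the left, and Ddit3 appears in both lists that hold it.

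**Figure D5:**
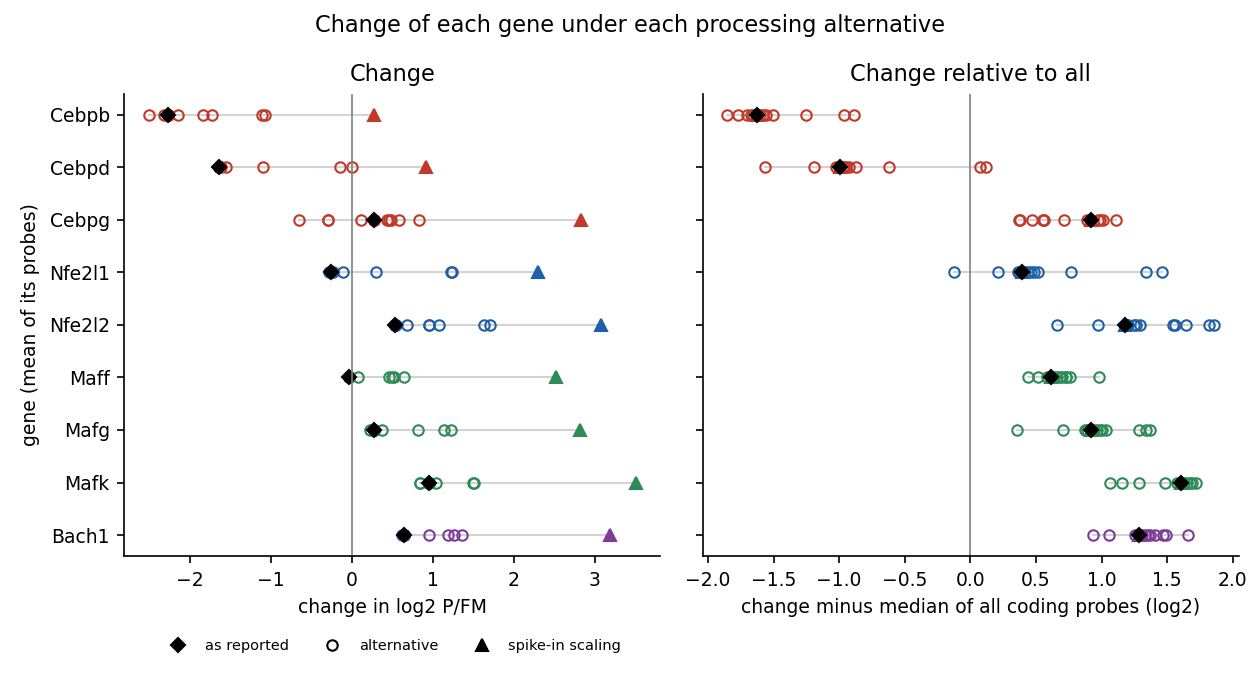
Each row is a member gene, with its change in log2 P/FM on the left and the change minus the median of all coding probes on the right. The diamond is the value as reported, circles are alternatives in the processing and the triangle is spike-in scaling. On the right Cebpb lies below 0 and Cebpg, Nfe2l2, Bach1 and the small Mafs above 0 in every setting.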

How the data were processed

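The members and the gene lists were chosen with earlier results of these data known. Per the file headers, spot and background intensity values came from Feature Extraction 10.7.1.1, with flags of 0 or 1 for signals well above background, saturation and outliers. The deposited table of log2 ratios was made by the authors without normalization, and 99.99% of its control values and 100% of its treated values equalled the means computed here within 0.001. Here each mean spot signal was reduced by its median local background, values below 0.5 were set to 0.5, and no normalization was applied, as in the study's methods. Of the spots, 295 flagged as outliers were left out, none of a member. Both arrays shared 1 slide and 1 scan, and 0 spots were saturated. Precision is limited by there being 1 array per condition. A signal not well above background gives only a bound, from its own value or, if higher, the lowest signal well above background among spots without a background flag.

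Genes named are all members and, per list, the 2 largest rises and 2 largest falls among genes with a probe well above background, plus Atf4, Ddit3, Hspa5 and the 3 genes nearest to the extreme members. Others (Maf, Cul3, Btrc, Atf5, Trib3, Pparg, Prdx1) were named after their values were seen. Gene symbols of lists were updated through RefSeq (GRCm38.p6). limma 3.58.1 in R 4.3.3 gave normexp (offset 50) and loess. The other alternatives were no background subtraction, median or processed signals, centring, spike-in scaling, other filters on A, accession or gene as the unit, and the authors' table. The code for the class counts was checked on simulated data, which is not a test between the conditions.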

Additional observations from a re-analysis of the deposited data

How the results depend on the processing

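No paired analysis was possible because each condition had 1 array, and for the same reason leaving out a replicate was not possible. Results were recomputed under 14 alternatives. The count of members with A higher by 1 or more was added after seeing the data. The causes of the differences were not tested unless the alternative removes probes or shifts an array by construction.

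The median change of the member probes, 0.06, was 0.46 with normexp, 0.84 with the processed signals, 0.61 after centring, 1.05 after loess and 2.61 with spike-in scaling, and it reversed to -0.14 with A above 7, which leaves 10 probes. Relative to all coding probes the median of 0.71 was 0.44 with normexp, 1.06 with the processed signals and 1.16 after loess. The median change in A, 1.05, was 0.33 with normexp, 0.75 with the processed signals, 0.55 after centring and 1.28 with A above 7. The count of 8 members with A higher by 1 or more was 4 with normexp, 3 with the processed signals, 1 after centring and 5 with the gene as the unit.

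The 1 inducible member was 0 without background subtraction, with A above 5.5 or 7, with all signals well above background, with the accession or gene as the unit and in the authors' table, 2 after centring, 3 without a filter and 5 with the processed signals or loess. The 3 sensitive members were 1 with the processed signals, after loess and in the authors' table, which holds 8 member accessions, and 0 with spike-in scaling.

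Among single genes, Maff (-0.03) reversed to 0.46 with normexp, 0.078 without background subtraction, 0.50 with the processed signals, 0.65 after loess, 2.52 with spike-in scaling and 0.52 after centring. Nfe2l1 (-0.25) reversed to 1.24 with the processed signals, 0.30 after centring, 1.23 after loess and 2.30 with spike-in scaling. Cebpd reversed to 0.0085 after loess and 0.91 with spike-in scaling, and Cebpb to 0.28 with spike-in scaling. Cebpg (0.28) reversed to -0.29 with A above 5.5, -0.65 with A above 7 and -0.29 with all signals well above background. Nfe2l2, Mafg, Mafk and Bach1 kept their direction wherever they were measured. Low signals limit Cebpa, Cebpg probe 3 and Nfe2l2 probe 1.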
